A study of Mus musculus with 12 samples.

Results

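Regulatory T cells are the suppressive branch of the CD4+ T cells, and 6 genes that mark them or carry out their function were examined: Foxp3, Il2ra, Ikzf2, Ikzf4, Lrrc32 and Il10. They were taken by name from a table of 21878 mouse genes. All 6 were among the 14330 genes that passed the filter on low counts. Each was described as a level and also relative to Cd3e, a signalling chain that every T cell carries in its antigen receptor complex. Total RNA of mouse liver tumor samples was sequenced in 12 libraries, labelled with the mouse hepatoma cell line Hepa1-6 and as liver. They form 4 groups of 3: untreated; mIFNalpha, mouse interferon alpha (named IFNa here); anti-PD-1 antibody, which blocks an inhibitory receptor of T cells (named antiPD1); and mIFNalpha together with anti-PD-1 antibody (named the combination). The labels state no dose, time, mouse strain or age, nor whether replicates came from separate animals, so p-values measure only the spread between these libraries.

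FOXP3 is the transcription factor that defines the regulatory T cell lineage and sustains its suppressive programme. Helios (Ikzf2) and Eos (Ikzf4) are zinc finger proteins of the Ikaros family that are enriched in these cells, and Eos acts with FOXP3 in gene silencing. Il2ra encodes CD25, the alpha chain that gives the interleukin 2 receptor its high affinity and lets regulatory T cells capture this growth factor. Lrrc32 encodes GARP, which holds latent TGF-beta on the surface of activated regulatory T cells, but it is also expressed by endothelial and stromal cells. Il10 encodes interleukin 10, a cytokine that dampens antigen-presenting cells and is made by regulatory T cells, macrophages and other leukocytes. Activated conventional T cells also carry CD25, so of these genes Foxp3 is the one most closely tied to the lineage.

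Promoter sequences are shown for those of the 6 genes that had an entry in the RefSeq table used. These were Foxp3 and Il2ra (2 of 6, with 3 promoters, build GRCm38.p6). Signals from the antigen receptor and the interleukin 2 receptor reach such genes through NFAT and STAT factors. Whether the motifs bear on the rise of these genes with antiPD1 was not tested. Each promoter sequence covers 250 bases before to 50 bases after an annotated start site, on the plus strand, with motif matches in capitals.
Foxp3, chrX:7579426-7579725: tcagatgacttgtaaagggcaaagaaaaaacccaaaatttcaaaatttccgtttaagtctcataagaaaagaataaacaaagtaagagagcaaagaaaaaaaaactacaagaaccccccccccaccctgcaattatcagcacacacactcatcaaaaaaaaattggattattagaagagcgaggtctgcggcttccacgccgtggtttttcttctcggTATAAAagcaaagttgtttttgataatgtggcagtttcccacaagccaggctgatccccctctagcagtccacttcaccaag
Foxp3, chrX:7580233-7580532: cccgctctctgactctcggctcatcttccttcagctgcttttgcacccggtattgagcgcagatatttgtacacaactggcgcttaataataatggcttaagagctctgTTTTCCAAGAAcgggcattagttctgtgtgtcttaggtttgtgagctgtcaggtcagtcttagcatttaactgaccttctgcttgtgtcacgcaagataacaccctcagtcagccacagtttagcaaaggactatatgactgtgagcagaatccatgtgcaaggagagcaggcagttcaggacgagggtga
Il2ra, chr2:11642542-11642841: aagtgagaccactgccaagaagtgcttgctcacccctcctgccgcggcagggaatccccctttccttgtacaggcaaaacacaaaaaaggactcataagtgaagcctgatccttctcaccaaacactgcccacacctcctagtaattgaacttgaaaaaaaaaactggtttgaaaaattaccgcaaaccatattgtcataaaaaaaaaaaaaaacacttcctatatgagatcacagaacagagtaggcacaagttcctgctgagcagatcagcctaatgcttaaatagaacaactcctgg
Both strands were searched for the STAT motif TTCNNNGAA, the interferon response element, the RUNX motif TGTGGT, the NFAT motif GGAAAA, the forkhead motif TGTTTAC and the TATA box TATAAA. The upstream Foxp3 promoter held a TATA box beginning at position -32 from the start site, a motif found in 13.6% of the 32851 promoters in the table. The downstream one held a STAT match at -139 (8.3% of promoters) that overlaps an NFAT match on the minus strand at -141 (23.4% of promoters). The Il2ra window held none of the 6 motifs. The interferon response element (3.44% of promoters), the RUNX motif (16.8%) and the forkhead motif (3.65%) were in none of the 3 windows.

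The 6 genes were located in mm10 with GENCODE M21. Foxp3 lies on chromosome X from 7573644 to 7595245 on the plus strand, where exons overlap the non-coding gene Flicr on the same strand and Ccdc22 and Ppp1r3f on the opposite strand. No label states the strand setting of the counting, so Foxp3 counts may include or lose reads of these neighbours and are uncertain to that extent. Across the libraries Ccdc22 had 458 to 627 counts and Ppp1r3f 57 to 100, and neither range resembled the spread of Foxp3 (8 to 181 counts). These ranges cannot show how many Foxp3 counts were gained from or lost to the neighbours. Il2ra lies on chromosome 2 from 11642807 to 11693193 (plus strand), Lrrc32 on chromosome 7 from 98489283 to 98502181 (plus) and Il10 on chromosome 1 from 131019845 to 131024974 (plus), with no overlapping exons. Ikzf2 lies on chromosome 1 from 69531214 to 69687245 (minus) and Ikzf4 on chromosome 10 from 128630843 to 128645991 (minus), each with 1 overlapping antisense gene, Gm29114 and Gm26876.

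Library totals were 31.3 to 38.5 M (mega) counts, of which the 6 genes together held 226 to 1888. A count of 3 corresponds to 0.0778 to 0.0958 counts per M of the library total, without TMM factors. Levels are given as CPM (counts per M, scaled with TMM factors), so this floor is approximate for them. The floor covers counting error only, whereas the SDs and SEs given below include the spread between libraries. Hepatoma and T cell transcripts were both present in every group: the 4 hepatocyte and hepatoma markers summed to at least 13123 CPM in each library and the 14 T cell markers to at least 28.8 CPM. In such bulk samples fewer cells of a type and less RNA per cell cannot be told apart. A pair of libraries stood apart. In IFNa replicate 1 the T cell markers summed to 28.8 CPM, against 83.9 and 89.1 CPM in the other IFNa libraries, and in antiPD1 replicate 3 they summed to 368 CPM, against 85.7 and 175 CPM. Most results that rest on these libraries are given with and without them.

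With antiPD1, alone or combined, Foxp3 was several-fold higher than without it. Foxp3 had 11, 20 and 11 counts in the untreated libraries (replicates 1 to 3), 8, 24 and 21 with IFNa, 26, 66 and 181 with antiPD1 and 72, 93 and 98 with the combination. Every library that received antiPD1 exceeded every library that did not, although antiPD1 replicate 1 exceeded the highest of the latter by only 2 counts. Mean levels were 0.457 ± 0.191 CPM (SD, n = 3 here and for the other CPM means) in untreated, 0.492 ± 0.229 with IFNa, 2.81 ± 2.71 with antiPD1 and 2.48 ± 0.389 with the combination. The antiPD1 mean is close to the combination mean, but its 3 libraries were widely spread and those of the combination were not.

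Ikzf2, which encodes Helios, had 17, 17 and 36 counts in untreated, 11, 46 and 45 with IFNa, 52, 105 and 208 with antiPD1 and 94, 112 and 138 with the combination. The order of the libraries is nearly that of Foxp3, with IFNa replicate 1 lowest and antiPD1 replicate 3 highest. Ikzf4, which encodes Eos, had 8, 17 and 25 counts in untreated, 22, 25 and 19 with IFNa, 52, 53 and 58 with antiPD1 and 48, 50 and 84 with the combination. Unlike Foxp3 and Ikzf2, it was even among the antiPD1 libraries, and its highest value lay in combination replicate 3. For both genes the 6 libraries with antiPD1 lay above the 6 without it.

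Il2ra, which encodes CD25, had 13, 4 and 24 counts in untreated, 10, 11 and 29 with IFNa, 32, 65 and 115 with antiPD1 and 31, 72 and 88 with the combination. The groups with antiPD1 again lay above those without, by 2 counts at the nearest point (combination replicate 1 against IFNa replicate 3). Its means were 0.430 ± 0.299 CPM in untreated, 0.458 ± 0.261 with IFNa, 2.15 ± 1.45 with antiPD1 and 1.80 ± 0.818 with the combination.

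The 2 genes of suppressor molecules followed another order. Lrrc32, which encodes GARP, had 182, 168 and 612 counts in untreated, 1079, 472 and 452 with IFNa, 1155, 562 and 1236 with antiPD1 and 741, 754 and 693 with the combination. IFNa replicate 1, the library lowest in T cell markers, was among the 3 highest for Lrrc32, and untreated replicate 3 exceeded antiPD1 replicate 2. Il10, which encodes interleukin 10, had 2, 0 and 9 counts in untreated, 15, 8 and 4 with IFNa, 15, 13 and 90 with antiPD1 and 12, 5 and 15 with the combination. Apart from antiPD1 replicate 3, no library exceeded 15 counts, and untreated replicates 1 and 2 lay under the floor of 3 counts. Group means of Il10 were 0.113 ± 0.144 CPM in untreated, 0.261 ± 0.175 with IFNa, 1.24 ± 1.46 with antiPD1 and 0.299 ± 0.138 with the combination.

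Compared per length, in FPKM (fragments per kilobase and M fragments) averaged over the 12 libraries, Lrrc32 was the most abundant of the 6 with 4.11 FPKM. Il10 followed with 0.312, Foxp3 with 0.276, Il2ra with 0.231, Ikzf2 with 0.193 and Ikzf4 with 0.113 FPKM. The Il10 mean rests on antiPD1 replicate 3, at 1.88 FPKM. Foxp3 stood at 5.06 ± 2.04% of the Cd3e level (FPKM) in untreated, 4.396 ± 1.17% with IFNa, 4.73 ± 1.42% with antiPD1 and 7.39 ± 0.543% with the combination.

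**Figure D1:**
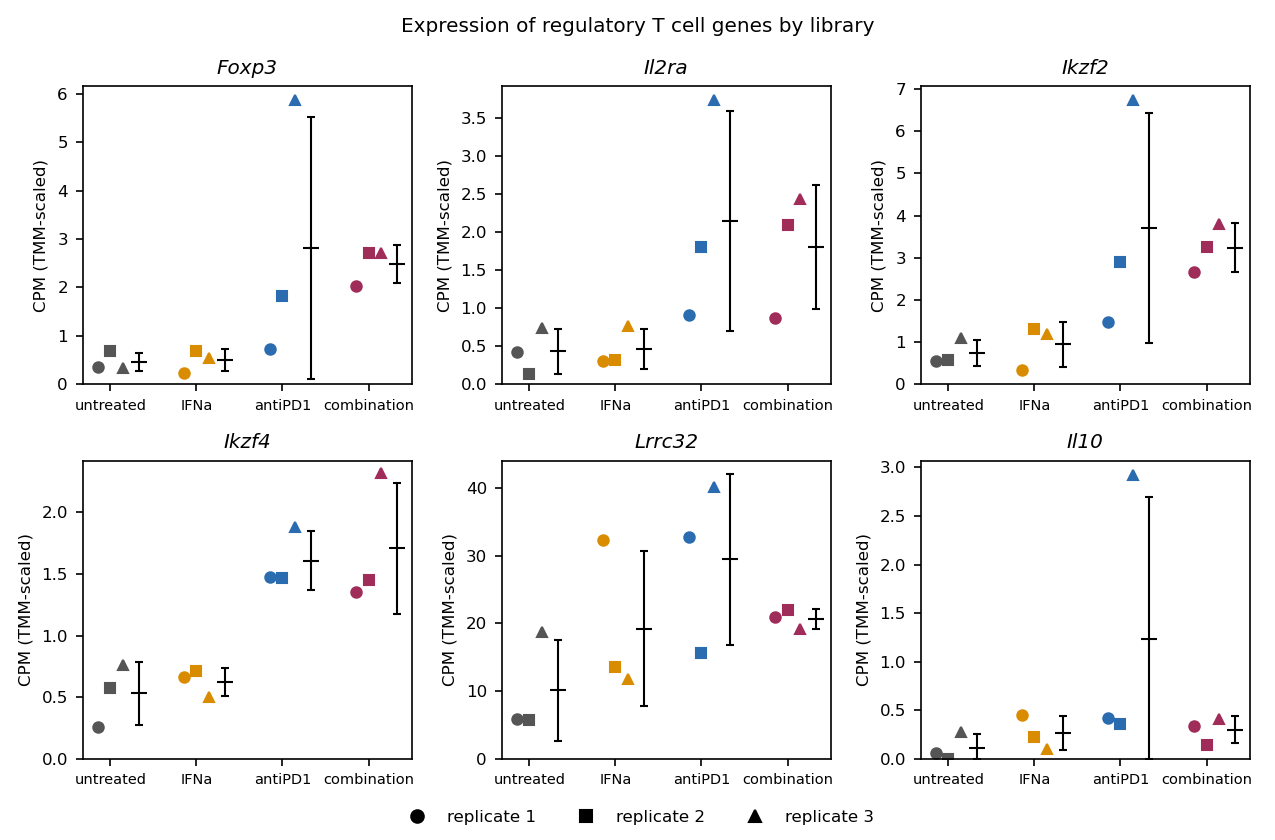
Level of each of the 6 genes (CPM, linear axis from 0) in the 12 libraries by group. Symbols are replicates and the black bar is the group mean with its SD (n = 3, lower arm stopped at 0); Foxp3, Il2ra, Ikzf2 and Ikzf4 are higher in all 6 libraries with antiPD1 than in the 6 without, while for Lrrc32 and Il10 those 6 and 6 libraries overlap.

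Whether antiPD1 changed these genes was asked first over all libraries, as the mean of the antiPD1 and combination groups against the mean of the untreated and IFNa groups (6 against 6 libraries). Of the 6 genes 4 rose: Foxp3, Il2ra, Ikzf2 and Ikzf4. The background was high, since 26.8% of all tested genes passed in this comparison and 15.9% rose. Foxp3 rose by 2.47 ± 0.49 on the log2 scale (SE), 5.53-fold (adjusted p = 0.00613, edgeR quasi-likelihood test, Benjamini-Hochberg over all tested genes). Il2ra rose by 2.13 ± 0.49 (adjusted p = 0.0112), Ikzf2 by 2.04 ± 0.43 (adjusted p = 0.00788) and Ikzf4 by 1.52 ± 0.29 (adjusted p = 0.00535). Lrrc32 did not pass, with 0.82 ± 0.37 (adjusted p = 0.123), and neither did Il10, with 1.79 ± 0.75 (adjusted p = 0.0971). The same 4 genes were those whose 6 values with antiPD1 all lay above the 6 without, as did those of 8.03% of tested genes. The median log2 fold change of the 6 genes was 1.91, beside -0.01 over all tested genes.

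These 4 calls held in edgeR with each library left out in turn, and in DESeq2. Every FPKM of Foxp3, Il2ra, Ikzf2 and Ikzf4 was below 1 (highest 0.944, for Foxp3), so adding 1 compresses their log2 differences. In limma on log2(FPKM + 1) Ikzf2 (adjusted p = 0.0555) and Ikzf4 (adjusted p = 0.175) did not pass, and on log2(FPKM + 0.1) Ikzf4 did not (adjusted p = 0.148). The Foxp3 difference then ranged from 1.90 (without antiPD1 replicate 3) to 2.69 on the log2 scale. Lrrc32 passed without untreated replicate 3 (1.22, adjusted p = 0.0175) and without IFNa replicate 1 (1.12, adjusted p = 0.0442), and Il10 passed without untreated replicate 3 (2.64, adjusted p = 0.0430) and fell back to 0.96 without antiPD1 replicate 3. With IFNa replicate 1 and antiPD1 replicate 3 both left out, 4 of the 6 passed and 28.6% of all tested genes did.

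**Figure D2:**
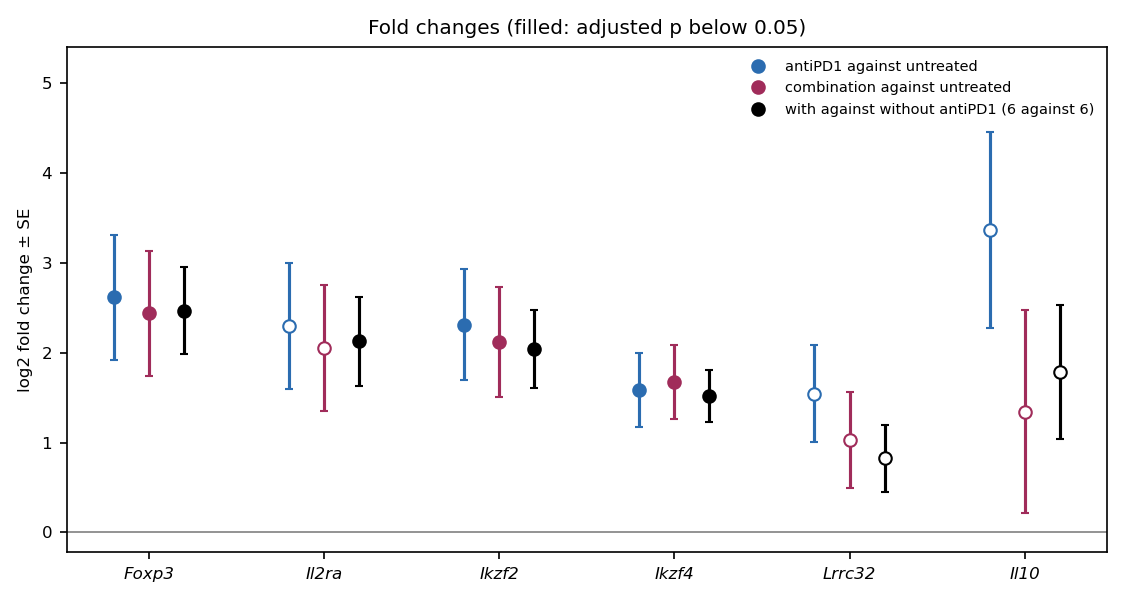
Log2 fold changes with SE (edgeR) for antiPD1 against untreated, the combination against untreated and all 6 libraries with antiPD1 against all 6 without. Filled symbols passed at an adjusted p below 0.05; Foxp3, Ikzf2 and Ikzf4 are filled in all 3 comparisons, Il2ra in the comparison of 6 against 6, and Lrrc32 and Il10 in none.

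Single groups were compared next, with wider errors. In antiPD1 against untreated libraries 3 of 6 genes rose, where 14.8% of tested genes passed and 9.76% rose: Foxp3 by 2.62 ± 0.69 (adjusted p = 0.0332), Ikzf2 by 2.31 ± 0.62 (adjusted p = 0.0336) and Ikzf4 by 1.58 ± 0.41 (adjusted p = 0.0307) on the log2 scale. Il2ra narrowly missed the threshold, with 2.30 ± 0.70 (adjusted p = 0.0506). Il10 had 3.36 ± 1.09 (adjusted p = 0.0599), a fold that rests on the low untreated counts and on antiPD1 replicate 3, without which it was 1.73 (adjusted p = 0.308), and Lrrc32 had 1.54 ± 0.54 (adjusted p = 0.0747). In 5 of the 6 genes, all but Lrrc32, the 3 antiPD1 values lay above the 3 untreated values, as in 17.5% of tested genes. The number that passed in edgeR was 0 without untreated replicate 1, untreated replicate 2 or antiPD1 replicate 3, 1 without combination replicate 2 or 3, and 5 without untreated replicate 3, IFNa replicate 1, antiPD1 replicate 1 or antiPD1 replicate 2. Foxp3 was 1.504 higher without antiPD1 replicate 3 (adjusted p = 0.134). With only the untreated and antiPD1 libraries fitted in edgeR 0 of 6 passed, as with limma at either pseudocount, whereas DESeq2 passed 6. Shares of all tested genes were computed for the main edgeR fits and without both IFNa replicate 1 and antiPD1 replicate 3. Counts from all other fits, here and elsewhere, have no such background beside them, so they cannot be set against all genes.

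In the combination against untreated libraries the same 3 genes rose, where 12.6% of tested genes passed and 7.58% rose. These were Foxp3 (2.44 ± 0.69, adjusted p = 0.0438), Ikzf2 (2.12 ± 0.62, adjusted p = 0.0469) and Ikzf4 (1.67 ± 0.41, adjusted p = 0.0301). Il2ra had 2.05 ± 0.70 (adjusted p = 0.0758), Lrrc32 1.03 ± 0.53 (adjusted p = 0.207) and Il10 1.34 ± 1.13 (adjusted p = 0.436). All but Il10 had 3 combination values above the 3 untreated values, as in 24.7% of tested genes. The number that passed was 0 without untreated replicate 1 or 2 or any 1 of the combination libraries, and 1 without IFNa replicate 2 or 3. With limma at either pseudocount it was also 0, and with DESeq2 4. The 2 comparisons share the untreated libraries, and both sets of values rest on untreated counts of 4 to 36 for Foxp3, Il2ra, Ikzf2 and Ikzf4.

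Against IFNa libraries 0 of 6 genes passed in edgeR, both for antiPD1 (5 at an unadjusted p under 0.05, DESeq2 4, limma 0) and for the combination (4 at an unadjusted p under 0.05, DESeq2 3, limma 0). Few genes passed at all there, 0.105% and 0.956% of those tested. Foxp3, Il2ra, Ikzf2 and Ikzf4 nonetheless had 3 values above the 3 IFNa values in each, as did 12.4% of tested genes for antiPD1 and 20.3% for the combination. For the combination against IFNa 1 gene passed without antiPD1 replicate 3, and for antiPD1 against IFNa 2 passed without antiPD1 replicate 1.

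IFNa alone was compared with untreated libraries, and none of the 6 genes passed. edgeR gave 0 of 6 (0 at an unadjusted p under 0.05, DESeq2 0, limma 0), in a comparison where 0% of all tested genes passed. Foxp3, Il2ra, Ikzf2 and Ikzf4 means differed by less than their SDs. Lrrc32 had the largest absolute difference in level, from 10.1 ± 7.45 CPM in untreated to 19.2 ± 11.4 CPM in IFNa libraries (log2 fold change 0.93 ± 0.53, adjusted p = 0.885), and 0.33 without IFNa replicate 1. Adding IFNa to antiPD1 gave 0 of 6 as well (0 at an unadjusted p under 0.05, DESeq2 0, limma 0), with 0% of tested genes. Il10 had the lowest value there, -2.02 ± 0.98 (adjusted p = 0.997), which was -0.39 without antiPD1 replicate 3. The effect of IFNa over all libraries (6 against 6) and the interaction, the effect of IFNa with antiPD1 minus that without, each gave 0 of 6 by the same 4 measures and 0% of tested genes. The interaction was -1.44 ± 0.74 for Lrrc32 (adjusted p = 0.800) and -3.16 ± 1.497 for Il10 (adjusted p = 0.799). Without antiPD1 replicate 3 the Il10 value was -1.55 and without IFNa replicate 1 the Lrrc32 value was -0.84.

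The genes were then set relative to Cd3e, to ask whether regulatory T cell transcripts changed within the T cell signal. Cd3e itself had 84, 73 and 78 counts in untreated, 35, 169 and 151 with IFNa, 192, 432 and 784 with antiPD1 and 306, 337 and 358 with the combination. It rose with antiPD1 by 2.01 ± 0.40 on the log2 scale (adjusted p = 0.00650, 6 against 6 libraries, edgeR). Foxp3 per 100 Cd3e counts was 13.1, 27.4 and 14.1 in untreated, 22.9, 14.2 and 13.9 with IFNa, 13.5, 15.3 and 23.1 with antiPD1 and 23.5, 27.6 and 27.4 with the combination. The first 3 groups overlapped throughout, so the several-fold rise of Foxp3 with antiPD1 was absent from this ratio.

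Ikzf2 per 100 Cd3e counts was 20.2, 23.3 and 46.2 in untreated, 31.4, 27.2 and 29.8 with IFNa, 27.1, 24.3 and 26.5 with antiPD1 and 30.7, 33.2 and 38.5 with the combination. Leaving aside untreated replicate 3, it stayed within 20.2 to 38.5 while Cd3e counts ran from 35 to 784. Il2ra per 100 Cd3e counts was 15.5, 5.48 and 30.8 in untreated, 28.6, 6.51 and 19.2 with IFNa, 16.7, 15.05 and 14.7 with antiPD1 and 10.1, 21.4 and 24.6 with the combination. Its low counts gave wide ratios without antiPD1, and no group stood clear of another. Ikzf4 ran from 7.40 per 100 Cd3e counts in antiPD1 replicate 3 to 62.9 in IFNa replicate 1. Lrrc32 ran from 130 in antiPD1 replicate 2 to 3083 in IFNa replicate 1, and Il10 from 0 in untreated replicate 2 to 42.9 in IFNa replicate 1. For the last 3 genes the library with the fewest T cell transcripts had the highest ratio.

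**Figure D3:**
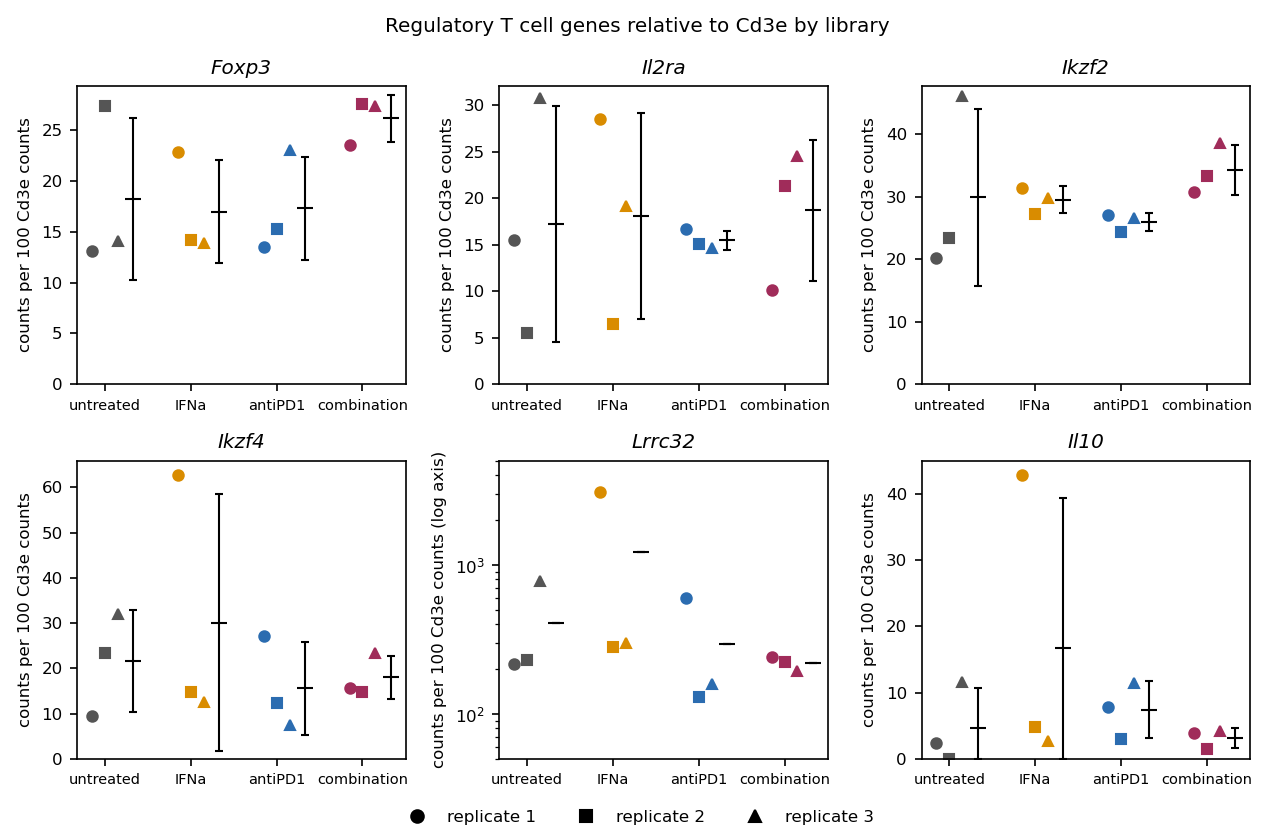
Counts of each gene per 100 Cd3e counts in the 12 libraries by group (linear axis from 0, but a log axis for Lrrc32). Symbols are replicates, the black bar is the group mean and its error bar the SD (n = 3, lower arm stopped at 0, no SD drawn on the log axis); Foxp3 lies between 13.1 and 27.6 in all 12 libraries, and the IFNa replicate 1 points of Ikzf4, Lrrc32 and Il10 are the highest of their panels.

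Differences in the mean log2 ratio to Cd3e, over all libraries with against without antiPD1, were small beside the spread of the ratios for Foxp3 (0.28, exact two-sided permutation p = 0.31), Il2ra (0.13, p = 0.785) and Ikzf2 (0.03, p = 0.92). They were -0.46 for Ikzf4 (exact permutation p = 0.425), -0.15 for Il10 (p = 0.87) and -1.04 for Lrrc32 (p = 0.19). The Lrrc32 value was -1.39 (exact permutation p = 0.015) without antiPD1 replicate 1 and -0.47 (exact permutation p = 0.335) without IFNa replicate 1. Libraries were permuted within the level of IFNa, 400 regroupings with a smallest possible p of 0.005. Adjusted over the 48 tests of the Cd3e ratio with all libraries, each p was 1. The p-values with a library left out were not adjusted. SDs of the log2 ratio within a group were 0.128 to 0.569 for Foxp3 and 0.0843 to 0.624 for Ikzf2, so these tests could not show a small shift and do not show that the ratios were alike. The signs for Il2ra and Ikzf2 turned with Cd3g or Cd4 as the denominator. Per count of Ptprc, the leukocyte antigen CD45, the Ikzf2 difference was 0.44 (exact permutation p = 0.025) and that of Foxp3 0.69 (exact permutation p = 0.05). Both p-values are unadjusted and lie outside the 48 tests. Denominators other than Cd3e were chosen for the permutation test after the data were seen.

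The ratio was also fitted for every gene in edgeR with the Cd3e count as the offset. In that fit 84.1% of tested genes passed and 83.8% were lower with antiPD1 (median log2 ratio -2.04), beside the rise of Cd3e itself. Of the 6 genes 1 passed, Lrrc32, lower by a log2 ratio of -1.47 ± 0.51 (adjusted p = 0.00481), and it did not pass without untreated replicate 3 (-1.03), without IFNa replicate 1 (-0.43) or without both IFNa replicate 1 and antiPD1 replicate 3 (-0.28). In antiPD1 against untreated and in the combination against untreated 0 of 6 passed (0 at an unadjusted p under 0.05, limma 0), where 71.8% and 69.2% of tested genes passed. IFNa against untreated, IFNa over all libraries, the combination against antiPD1 and the interaction also gave 0 of 6 (1, 0, 0 and 1 at an unadjusted p under 0.05, limma 0 each, 0.188%, 0.00698%, 0.167% and 0.202% of tested genes). In the combination against IFNa 2 of 6 were lower, where 77.5% of tested genes passed and 77.2% were lower: Lrrc32 by a log2 ratio of -2.47 ± 0.74 (adjusted p = 0.00772) and Il10 by -2.19 ± 1.05 (adjusted p = 0.0479). In antiPD1 against IFNa 1 of 6 was lower, Lrrc32 (-2.04 ± 0.73, adjusted p = 0.00931), where 80.5% passed and 80.4% were lower. IFNa replicate 1 decides these values: without it 0 of 6 passed in either comparison, and Lrrc32 stood at -0.40 for the combination and 0.032 for antiPD1 and Il10 at -0.21. Against IFNa 0 passed also for the combination without combination replicate 2 or 3, and for antiPD1 without antiPD1 replicate 2. Il10 did not pass either without any 1 of untreated replicates 1 to 3, combination replicate 1 or antiPD1 replicates 2 and 3. This fit takes its spread in part from genes that do not follow Cd3e, so its errors are wide for genes that do.

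The Foxp3 ratio had its highest group mean in the combination group, 26.2 per 100 Cd3e counts. The 3 combination values lay above the 3 antiPD1 values (mean log2 difference 0.63, exact permutation p = 0.1, the smallest that 3 against 3 libraries allow). The gap between the groups was narrow, 23.5 against 23.1 per 100 Cd3e counts, and untreated replicate 2, at 27.4, lay in the range of the combination. Ikzf2 likewise had 3 combination values above the 3 antiPD1 values (0.39, exact permutation p = 0.1). The share of all tested genes whose Cd3e ratios separate in this way was not computed, so these separations have no background beside them. Per Cd4 count the Foxp3 difference was 0.57 (exact permutation p = 0.2) and per Ptprc count it was 0.28 (p = 0.7). Per count of Cd8a, another T cell marker, it was 0.51 (exact permutation p = 0.4). The Ikzf2 difference was 0.33 per Cd4 count (exact permutation p = 0.4) and 0.27 per Cd8a count (p = 0.3). Over all libraries IFNa gave a Foxp3 difference of 0.28 (exact permutation p = 0.29) and an Ikzf2 difference of 0.23 (p = 0.255). Untreated replicate 3 had the highest Ikzf2 ratio of all libraries, 46.2 per 100 Cd3e counts. Without it the Ikzf2 difference was 0.41 (exact permutation p = 0.005, the smallest possible). That p is unadjusted, and leaving out libraries in the permutation test was chosen after the data were seen.

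How closely each gene followed Cd3e was measured over the 12 libraries on log2(CPM + 0.1). Ikzf2 had Pearson r = 0.969 (permutation p = 1e-05, the smallest that the permutations can give) and Spearman rho = 0.951 (permutation p = 4e-05), and Foxp3 had r = 0.949 (permutation p = 2e-05) and rho = 0.930 (permutation p = 9e-05). Il2ra had r = 0.854 (permutation p = 0.00048) and rho = 0.888 (permutation p = 0.00027), and Ikzf4 r = 0.762 (permutation p = 0.00428) and rho = 0.776 (permutation p = 0.0043). Il10 had r = 0.572 (permutation p = 0.0488, adjusted 0.0651) and rho = 0.392 (permutation p = 0.208), and Lrrc32 r = 0.369 (permutation p = 0.235) and rho = 0.392 (permutation p = 0.207). Adjusted over the 24 relations computed, r and rho passed for Foxp3, Il2ra, Ikzf2 and Ikzf4 (highest adjusted p 0.0103, permutation test) and not for Lrrc32 and Il10.

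The group differences enter these values, so deviations from group means were also correlated, as a description. They gave r = 0.920 for Ikzf2, 0.879 for Foxp3, 0.547 for Il2ra, 0.0757 for Ikzf4, 0.209 for Il10 and -0.341 for Lrrc32. Within groups Foxp3 and Ikzf2 thus followed Cd3e too, whereas the Ikzf4 relation lay between groups. Cd3e varied little within untreated (73 to 84 counts) and combination libraries (306 to 358). It ran from 35 to 169 with IFNa and from 192 to 784 with antiPD1, so these values rest mainly on those groups. Deviations were not correlated without IFNa replicate 1 and antiPD1 replicate 3. For the levels themselves, r without these libraries, the farthest from the median of Cd3e, was 0.922 for Foxp3, 0.805 for Il2ra and 0.940 for Ikzf2. It was 0.821 for Ikzf4, 0.594 for Lrrc32 and 0.627 for Il10. Among themselves, Foxp3 and Ikzf2 had r = 0.942, Il2ra and Ikzf2 0.910, and Lrrc32 and Il10 0.833, while Lrrc32 and Foxp3 had 0.397.

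**Figure D4:**
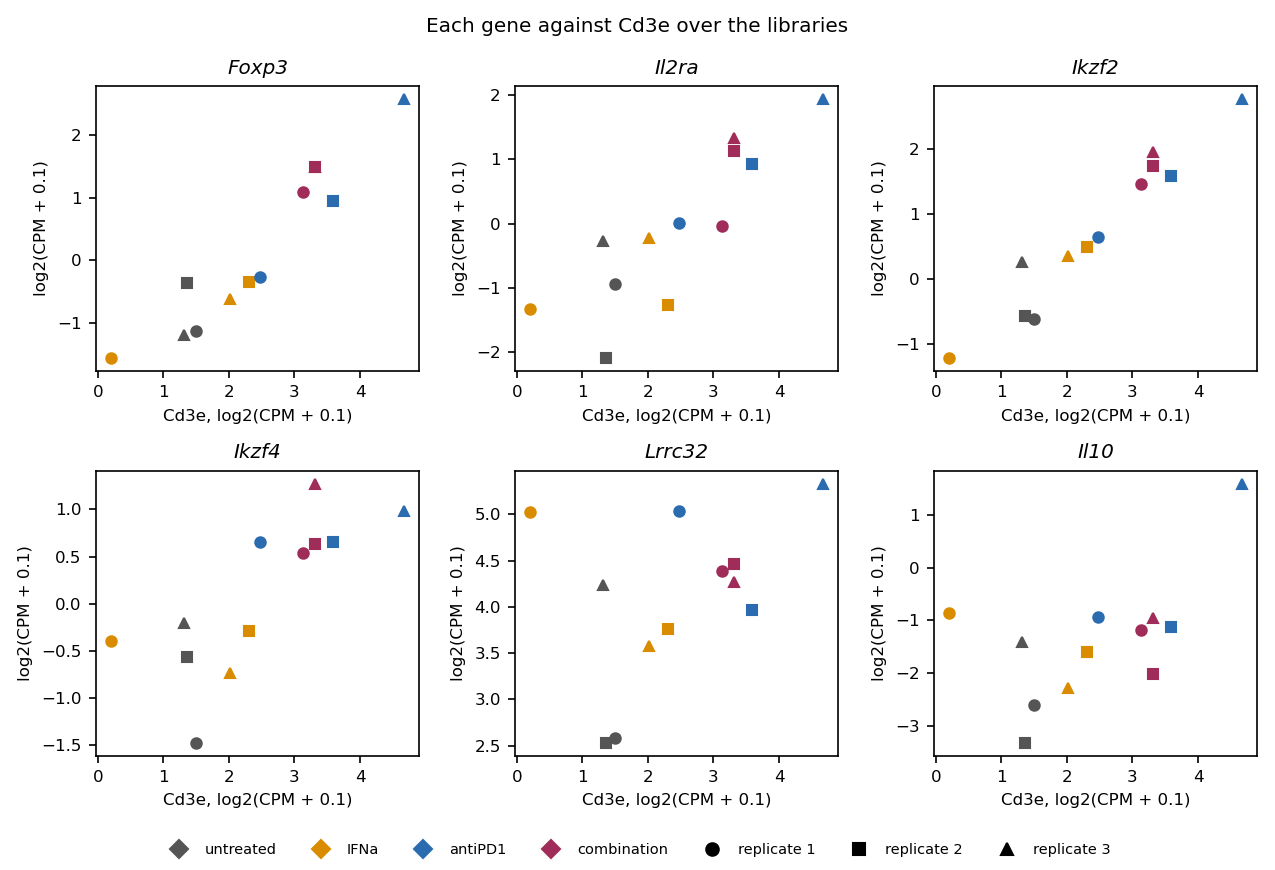
Each gene against Cd3e in the 12 libraries, both as log2(CPM + 0.1), with groups by colour and replicates by symbol. Foxp3 and Ikzf2 lie close to a line, with r of 0.949 and 0.969, whereas in the Lrrc32 panel (r of 0.369) IFNa replicate 1 is at the left edge for Cd3e and near the top for Lrrc32.

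Markers of other cells were set beside these results. The summed level of 6 endothelial markers was 92.3, 96.1 and 202 CPM in untreated, 232, 153 and 136 with IFNa, 375, 74.1 and 277 with antiPD1 and 259, 175 and 189 with the combination. Lrrc32 shared with this sum the highest untreated library (replicate 3), the order of the IFNa libraries and the lowest antiPD1 library (replicate 2). The highest antiPD1 library was not shared, being replicate 3 for Lrrc32 and replicate 1 for the sum. Within the combination Lrrc32 varied little (19.1 to 21.9 CPM) and was highest in replicate 2, where the sum was lowest. Over the 12 libraries its r with the endothelial sum was 0.813 (permutation p = 0.0013, adjusted 0.00312) with rho = 0.853 (permutation p = 0.0007, adjusted 0.0024), and r was 0.954 without antiPD1 replicates 1 and 2, the libraries farthest from the median. Deviations from group means gave 0.820. With the 5 fibroblast and stellate markers r was 0.872 for Lrrc32 (permutation p = 0.00023, adjusted 0.00092) with rho = 0.692 (permutation p = 0.0158, adjusted 0.027), and r was 0.777 without untreated replicate 2 and antiPD1 replicate 3. Foxp3 had r = 0.188 with the endothelial sum (permutation p = 0.553) with rho = 0.245 (permutation p = 0.441), and r was 0.476 without antiPD1 replicates 1 and 2. Other genes among the 6 also followed the fibroblast and stellate sum: Il2ra with r = 0.772 (permutation test, adjusted p = 0.00467), Ikzf2 0.715 (adjusted 0.0124) and Ikzf4 0.700 (adjusted 0.0155). Foxp3 had r = 0.553 (permutation test, adjusted p = 0.0763). Without untreated replicate 2 and antiPD1 replicate 3 r was 0.464 for Il2ra, 0.534 for Ikzf2, 0.782 for Ikzf4 and 0.398 for Foxp3. The part of endothelial or stromal cells in the Lrrc32 values was not tested.

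Il10 also followed these lists, with r = 0.890 to the fibroblast and stellate sum (permutation p = 0.0003, adjusted 0.00103) and rho = 0.636 (permutation p = 0.0302, adjusted 0.0483). Without untreated replicate 2 and antiPD1 replicate 3 r was 0.693. Its r with the summed level of 7 macrophage and monocyte markers was 0.763 (permutation p = 0.0043, adjusted 0.00794) with rho = 0.490 (permutation p = 0.111), and r was 0.352 without the same libraries, so the macrophage relation rests on them. Foxp3 (r = 0.916, permutation p = 5e-05; rho = 0.881, permutation p = 0.0003) and Ikzf2 (r = 0.951, permutation p = 1e-05; rho = 0.930, permutation p = 4e-05) were nearly as close to the macrophage sum as to Cd3e, and without untreated replicate 2 and antiPD1 replicate 3 r was 0.929 and 0.935. These relations do not single out T cells, since several leukocyte lists moved together.

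In the comparison of 6 libraries with against 6 without antiPD1, the leukocyte lists rose nearly throughout, beside 15.9% of all tested genes. Of T cell markers 13 of 14 rose, and their sum was 44.5 to 58.9 CPM in untreated, 28.8 to 89.1 with IFNa, 85.7 to 368 with antiPD1 and 130 to 166 with the combination. Of macrophage and monocyte markers 7 of 7 rose, with sums of 279 to 507, 308 to 531, 950 to 4087 and 1245 to 1613 CPM in the same order of groups. Of B and plasma cell markers 6 of 6 rose (2.53 to 3.67, 1.56 to 4.25, 27.3 to 64.1 and 25.9 to 32.0 CPM), of dendritic cell markers 5 of 5 (1.66 to 4.03, 1.23 to 3.66, 6.60 to 31.7 and 8.61 to 13.3 CPM) and of natural killer and innate lymphoid markers 6 of 8 (25.9 to 27.6, 29.0 to 37.2, 37.5 to 94.8 and 36.7 to 47.2 CPM). Of mast cell markers 3 of 4 rose (2.43 to 6.78, 5.21 to 11.95, 7.95 to 24.8 and 12.1 to 17.5 CPM). Fcer1a, the receptor chain that binds IgE, was at 0 counts in the 3 IFNa libraries, and no other marker was at 0 throughout a group. Of endothelial markers 0 of 6 rose in edgeR and of fibroblast and stellate markers 2 of 5. Without antiPD1 replicate 2 these counts were 4 and 5, without untreated replicate 3 they were 1 and 5, and DESeq2 gave 1 and 5. Of platelet and megakaryocyte markers 1 of 4 tested rose (34.7 to 41.5, 18.0 to 39.1, 28.8 to 48.1 and 42.5 to 48.6 CPM). Of hepatocyte and hepatoma markers 0 of 4 rose and 1 fell, with sums of 20611 to 23294, 18042 to 22052, 13833 to 25330 and 13123 to 18421 CPM. The one that fell was Afp, the fetal liver and hepatoma protein alpha-fetoprotein, by 0.62 ± 0.10 (adjusted p = 0.00383), from 10413 ± 696 CPM in untreated to 7019 ± 666 with antiPD1 and 6129 ± 687 with the combination. The part of these cells in the results for the 6 genes was not tested.

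Other genes associated with regulatory T cells moved in the same direction for the most part. Of 26 listed genes 25 were tested, 17 rose and 2 fell with antiPD1 over all libraries, where 15.9% of all tested genes rose, with a median log2 fold change of 1.20 beside -0.01 over all tested genes. Ctla4, the inhibitory receptor that competes for B7 ligands, had 1.34 ± 0.618 CPM in untreated, 0.839 ± 0.169 with IFNa, 13.7 ± 19.0 with antiPD1 and 3.48 ± 0.915 with the combination. It rose by 2.70 ± 0.65 on the log2 scale (adjusted p = 0.0132), and by 1.55 without antiPD1 replicate 3, which held 1097 of its counts. Tnfrsf18, the costimulatory receptor GITR, rose by 1.10 ± 0.31 (adjusted p = 0.0233), from 2.16 ± 0.356 CPM in untreated to 4.70 ± 2.87 with antiPD1 and 4.18 ± 0.847 with the combination. It did not pass without untreated replicate 1 or combination replicate 2.

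Ccr8, a chemokine receptor of tumour-infiltrating regulatory T cells, had 0 to 8 counts in each library without antiPD1 and 12 to 123 in each with it (log2 fold change 3.26 ± 0.72, adjusted p = 0.00908). Ebi3, a subunit of interleukin 35 and interleukin 27, rose by 1.70 ± 0.31 (adjusted p = 0.00473), and Tnfrsf9, the costimulatory receptor 4-1BB, by 1.001 ± 0.19 (adjusted p = 0.00540). Il1rl1, the interleukin 33 receptor ST2, rose by 2.37 ± 0.40 (adjusted p = 0.00419), and it is also a marker of mast cells and innate lymphoid cells. Areg, the epidermal growth factor family ligand amphiregulin, fell by 0.98 ± 0.18 (adjusted p = 0.00456), from 66.7 ± 21.6 CPM in untreated to 29.8 ± 6.30 with the combination. Icos, a costimulatory receptor, did not pass, with 1.20 ± 0.43 (adjusted p = 0.0587). Many of these genes are shared with activated conventional T cells or other leukocytes, and their sum over the list was 434 to 543 CPM in libraries without antiPD1 and 482 to 817 with it.

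**Figure D5:**
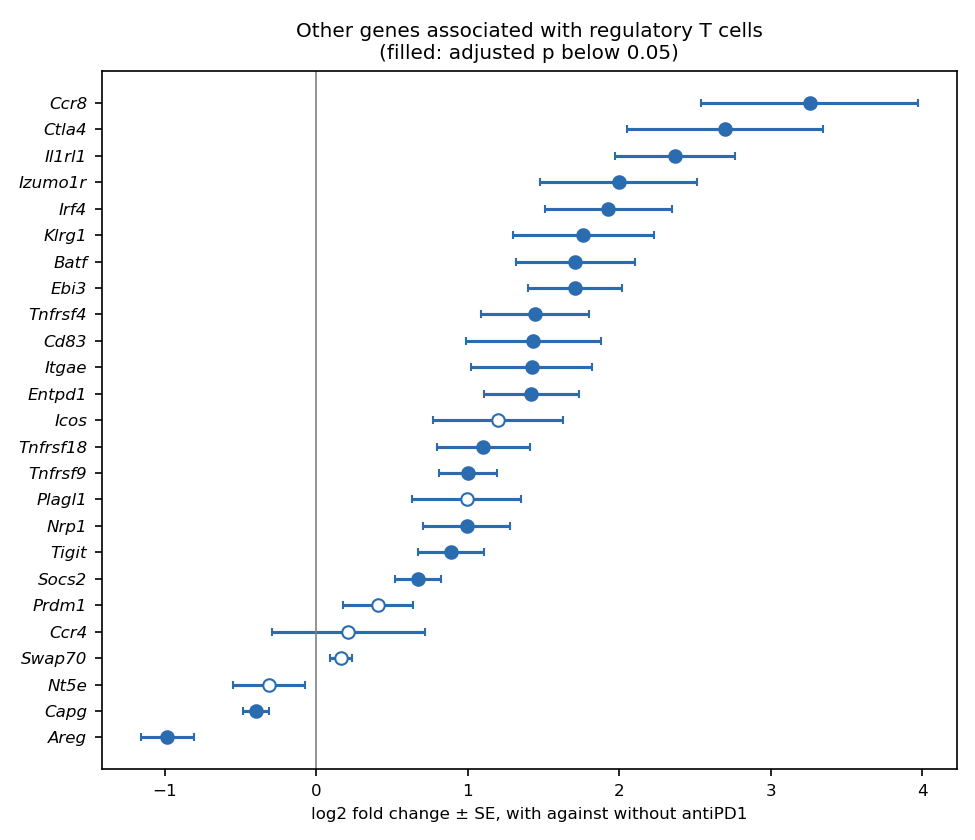
Log2 fold changes with SE (edgeR, 6 libraries with against 6 without antiPD1) for the 25 tested genes of a list associated with regulatory T cells, the 6 genes themselves left out. Filled symbols passed at an adjusted p below 0.05; 17 are filled to the right of 0 and 2, among them Areg, to the left.

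Around Foxp3, partner and upstream factors showed no common direction. Of 17 listed 4 rose and 2 fell, with a median of 0.02, a share that rose near the 15.9% of all tested genes. Those that rose were Runx3, a lymphocyte transcription factor (1.84 ± 0.40, adjusted p = 0.00898), Gata3 (2.48 ± 0.57, adjusted p = 0.0106), which also marks helper and innate lymphoid cells, Nfatc2, which acts downstream of the antigen receptor (0.72 ± 0.19, adjusted p = 0.0194), and the chromatin organiser Satb1 (1.43 ± 0.39, adjusted p = 0.0225). Gata3 had 2 to 5 counts in untreated libraries. Satb1 did not pass without untreated replicate 1, nor Nfatc2 without untreated replicate 2.

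The interleukin 2 receptor pathway around Il2ra rose in 7 of 11 tested genes and fell in 0, beside 15.9% of all tested genes that rose. Il2rb, the beta chain, rose from 9.93 ± 0.907 CPM in untreated to 37.3 ± 24.98 with antiPD1 and 30.5 ± 3.71 with the combination (log2 fold change 1.62 ± 0.30, adjusted p = 0.00485), and Il2rg, the common gamma chain, by 2.19 ± 0.40 (adjusted p = 0.00485). The STAT5 target and feedback inhibitor Cish rose by 1.43 ± 0.17 (adjusted p = 0.00201), and the survival factor Bcl2 by 1.11 ± 0.17 (adjusted p = 0.00374). Cish had tight groups, with 2.11 ± 0.336 CPM in untreated, 4.16 ± 1.18 with IFNa, 7.18 ± 1.04 with antiPD1 and 8.91 ± 0.852 with the combination. The cytokine gene Il2 had 0 to 4 counts in a library and was not tested. These receptors serve other lymphocytes as well.

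Of the other Ikaros family genes, Ikzf1 (Ikaros, 1.40 ± 0.26, adjusted p = 0.00509) and Ikzf3 (Aiolos, 2.12 ± 0.35, adjusted p = 0.00413), which are expressed across lymphocytes, rose. The widely expressed Ikzf5 fell by 0.31 ± 0.10 (adjusted p = 0.0374), a call lost without untreated replicate 1 or 2, IFNa replicate 1 or 2 or any 1 of the combination libraries. Differences between these genes were not tested.

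Of 13 genes that act with GARP in holding and activating latent TGF-beta, 3 rose and 1 fell, a share that rose near the 15.9% of all tested genes. The integrin chain Itgb8, which activates TGF-beta, rose by 2.53 ± 0.39 (adjusted p = 0.00374) from 2 to 4 counts in untreated libraries, Nrros, a docking protein of latent TGF-beta in myeloid cells, by 1.56 ± 0.30 (adjusted p = 0.00558), and Tgfb3 by 1.02 ± 0.24 (adjusted p = 0.0114). The protease Furin fell by 0.36 ± 0.10 (adjusted p = 0.0208). Tgfb1, the main TGF-beta of immune cells, did not pass (-0.17 ± 0.08, adjusted p = 0.147). In the interleukin 10 pathway 2 of 9 genes rose and 0 fell, likewise near that share: Il10ra, the ligand-binding receptor chain, by 1.69 ± 0.34 (adjusted p = 0.00673) and the kinase Tyk2 by 0.38 ± 0.10 (adjusted p = 0.0186), the latter not without untreated replicate 1. Il10ra rose with small spread in the combination (34.6 ± 2.84 CPM), where Il10 itself had 5 to 15 counts.

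The genes most like each of the 6 over the 12 libraries were ranked by Pearson r on log2(CPM + 0.1) among 12740 genes with a mean of at least 1 CPM. For Foxp3 these were Pdcd1lg2 (r = 0.978), H2-DMa (0.975) and Il2rb (0.973), with Cd3e at rank 38. For Ikzf2 they were Plbd1 (0.994), H2-DMb1 (0.993) and Ptprc (0.992), with Cd3e at rank 135. For Il2ra they were Cd69 (0.968), Rnase6 (0.963) and Rtn1 (0.963), with Cd3e at rank 557. Pdcd1lg2, H2-DMa, H2-DMb1 and Plbd1 are typical of myeloid or antigen-presenting cells, while Il2rb and Cd69 are typical of lymphocytes. For Ikzf4 they were Samd9l (0.958), Gbp4 (0.954) and Ptgir (0.948), with Cd3e at rank 1316. For Lrrc32 they were Tshz3 (0.978), Medag (0.977) and Steap2 (0.967), with Cd3e at rank 3462, and for Il10 Gab2 (0.968), Zc3h12a (0.953) and Mrap (0.948), with Cd3e at rank 2567. The libraries share depth and tissue makeup, so these values describe likeness only.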

How the data were processed

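RNA sequencing of 12 libraries was used, 3 in each of 4 groups taken from the treatment labels. The submitters' processing notes name mm10, HISAT2 2.1.0, Cufflinks and HTSeq, but not what each tool did. The annotation and strand setting used by the authors were not stated in the labels. Deposited values were whole-number counts per gene (31.3 to 38.5 M per library) and, in another deposited table, FPKM of the same genes. In edgeR 4.0.16 (R 4.3.3), filterByExpr set the genes tested (minimum count 10), TMM the scaling, and a robust quasi-likelihood fit over all 12 libraries the tests, with contrasts of group means and Benjamini-Hochberg adjustment over all tested genes (threshold 0.05). Ratios to Cd3e were fitted with the log Cd3e count as offset, and tested per gene by exact permutation of log2((count + 0.5)/(Cd3e count + 0.5)). Relations used 100000 permutations. Alternatives were RLE scaling, no filter, only the groups compared, DESeq2 1.42.0, limma 3.58.1 on log2(FPKM + 1) or log2(FPKM + 0.1) on genes with FPKM of at least 1 in 3 libraries and on the 6 genes whatever their FPKM, a replicate block, no robust moderation, other denominators and left-out libraries.

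The procedure was tested on simulated data. The 6 genes and all lists were chosen with earlier results of these data known. Named from each list were up to 4 genes with the smallest p in the comparison of 6 against 6 libraries, plus genes named in advance, and examples of these are given. Cd8a as denominator, the Cd3e ratio fits of the combination against antiPD1 and of both against IFNa, the other denominators and left-out libraries in the permutation test, and the relations to marker sums were chosen after the data were seen. Replicate numbers were not taken to pair the libraries in the main fits, and whether they do was not settled. Some genes are not reported here.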

Additional observations from a re-analysis of the deposited data

How the results depend on the processing

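The number of the 6 genes past the threshold with against without antiPD1 (6 against 6 libraries) was 4 in edgeR and DESeq2, 4 to 6 with a library left out, 2 with limma on log2(FPKM + 1) and 3 on log2(FPKM + 0.1). For antiPD1 against untreated it was 3 in edgeR, 0 with only the compared groups fitted, 6 in DESeq2, 0 with limma at either pseudocount, 1 without the FPKM filter, 1 without IFNa replicate 1 and antiPD1 replicate 3, and 0 to 5 with 1 library left out. For the combination against untreated it was 3, 0 with limma at either pseudocount, 1 without the FPKM filter, and 0 to 4 with 1 library left out. For the combination against IFNa it was 0, 1 with only the compared groups, 3 in DESeq2, 1 without both libraries and 0 to 1 with 1 left out; for antiPD1 against IFNa it was 0, 4 in DESeq2 and 0 to 2 with 1 left out. With the replicate number as a block, 5 genes passed for antiPD1 against untreated and 1 for the combination against IFNa. Deviations of same-numbered libraries had correlations from -0.304 to 0.503, with 8 of 18 pairs over 0.1. Differently numbered libraries were not compared, so whether the numbers pair the libraries was not settled.

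In the ratio to Cd3e fit with against without antiPD1 the count was 1, 0 without both libraries and 0 to 1 with 1 left out; for antiPD1 against untreated it was 0 to 1, and for the combination against untreated 1 without both libraries. For the combination against IFNa it was 2, 1 per Ptprc or Cd8a count, with no low-count filter or with limma, 0 without both libraries and 0 to 2 with 1 left out; for antiPD1 against IFNa it was 1, 0 per Cd4 count or without both libraries and 0 to 1 with 1 left out, where the Lrrc32 value ran from -3.08 to 0.032 and was 0.33 without both. The exact permutation tests with against without antiPD1 passed (unadjusted p below 0.05) in 0 cases, 1 per Ptprc count and 0 to 1 with 1 library left out. Permutation tests of the other comparisons are not in this count. Signs of the 6-against-6 log2 ratio turned for Il2ra per Cd3g (-0.086) and Cd4 (-0.14) and from -0.18 to 0.41 with 1 library left out, for Ikzf2 per Cd3g (-0.18) and Cd4 (-0.23) and from -0.081 to 0.21, for Il10 per Ptprc (0.25) and Cd8a (0.0059), without both libraries (0.23) and from -0.68 to 0.43, and for Ikzf4 without both libraries (0.12). None of these passed a test. Of the 26 genes associated with regulatory T cells 17 of 25 tested rose in edgeR, and of the 15 past the FPKM filter 9 with limma on log2(FPKM + 1) and 10 on log2(FPKM + 0.1). The cause of these changes was not tested. Depth limits Foxp3, Il2ra, Ikzf2, Ikzf4 and Il10, with 0 to 36 counts per untreated library.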
